A study of Saccharomyces cerevisiae with 60 samples.

Results

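The 67 loci described here are nuclear small nucleolar RNA (snoRNA) genes of budding yeast, Saccharomyces cerevisiae, taken from the 76 genes that the R64 annotation gives the biotype snoRNA, so that SCR1, RPR1, NME1 and the spliceosomal RNA genes were not members. For each gene the ChIP-seq signal was read in a window of 500 bp centred on it. Another 9 genes were not used because they lie to the right of the insertions that carry the control proteins: SNR47, SNR13 and SNR84 on chromosome IV and SNR36, SNR35, SNR17A, SNR8, SNR31 and SNR5 on chromosome XV. Of the 67 members, 42 stand alone as single genes, 17 belong to 5 clusters of neighboring snoRNA genes (polycistronic) and 8 lie within a protein-coding gene (intronic). By RNA type, 44 encode box C/D RNAs and 23 box H/ACA RNAs. Windows of neighbors overlap for 12 pairs, so the 67 members stand at 55 separate loci and members of 1 cluster are not independent of each other.

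SnoRNAs are short, very abundant nuclear RNAs that act in the nucleolus, where ribosomal RNA is made. Box C/D RNAs guide ribose methylation of rRNA, box H/ACA RNAs guide the conversion of uridine to pseudouridine, and U3, U14 and snR30 are needed for the cleavages that release the small-subunit rRNA. Most snoRNA genes are transcribed by RNA polymerase II at high rates, polycistronic precursors are cut by the RNase III enzyme Rnt1, intronic snoRNAs are freed from the introns of their hosts, and SNR52 is made by RNA polymerase III. Highly transcribed genes are known as places where ChIP recovers DNA that the target protein does not specifically bind.

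The study made ChIP-seq libraries from 20 groups of strain, antibody and culture, with 3 libraries each (60 in all), to compare kinds of controls. The untagged strain SSY161 (WT) was precipitated with anti-FLAG (M2), anti-MYC (9E10) or anti-HA (12CA5 with 16B12). The control strains FLOP (MPy35), MOP (MPy105) and HOP (MPy39) express LexA, a bacterial repressor, fused to 3xFLAG, 13xMYC or 3xHA, as a protein that carries the epitope but has no yeast target. Fkh1, a forkhead transcription factor, was tagged with FLAG (OAy1100) or MYC (MPy166) with no LexA fusion present, its DNA-binding mutant likewise (fkh1-dbm-FLAG, MPy172, and fkh1-dbm-MYC, MPy169), and the tagged wild-type form was also combined with the matching LexA control in Fkh1-FLAG (FLOP), MPy54, and Fkh1-MYC (MOP), MPy108. These 12 groups were grown unsynchronized. A further 8 groups were held in G1 with α-factor for 3.5 hr: FLOP, MOP, HOP, Fkh1-FLAG (FLOP), Fkh1-MYC (MOP), Orc1-HA (HOP), MPy199, Mcm4-HA (HOP), MPy184, and Sir2-FLAG (FLOP), YHy29. Orc1 is a subunit of the origin recognition complex, Mcm4 a subunit of the replicative helicase and Sir2 a silencing deacetylase. Strain names are those of the labels. For Fkh1-FLAG (FLOP) and Mcm4-HA (HOP) the study's figure legends give MPy55 and MPy102 instead, and the groups here follow the labelled genotype. All cultures were grown in YEPD at 23 °C and fixed with 1% formaldehyde for 15 min. LexA-3xFLAG was driven by the TEF1 promoter and the other LexA fusions by the ADH1 promoter, so epitope and promoter cannot be told apart. Each genotype was 1 strain. The anti-HA G1 groups were precipitated with 12CA5 alone, so culture and antibody cannot be told apart where HOP in G1 is set against unsynchronized HOP. The labels do not say that the 3 libraries of a group came from separate cultures, and p-values measure only the spread between these libraries.

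Summed window counts were 2116658 to 44263661 per library, and the counts over a snoRNA window reached from 737 to 6338 in the untagged anti-FLAG group but from 24 to 255 in untagged anti-MYC, the group with the lowest median count. The signal is the read count per 50 bp window after a moving median of 10 windows, divided by the 20th percentile of the library, so that 1 stands for the low part of that library's own genome. No pair of libraries held identical counts.

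The plain IP of the untagged strain with anti-FLAG gave the highest snoRNA signal of all 20 groups. Over the 67 members the median signal was 2.08 ± 0.163 (SD, n = 3 libraries), which was 0.81 ± 0.11 above the median of all bins on the log2 scale. The polycistronic members stood at a median of 3.87, the intronic ones at 3.29 and the single genes at 1.55. In FLOP the median signal over members was 1.33 ± 0.0309 (SD, n = 3). In MOP it was 1.44 ± 0.165, and in HOP 1.35 ± 0.0477. The snoRNA median lay above the median of all bins in all 3 libraries of 14 of the 20 groups and below it in all 3 libraries of 4 groups. The lowest level was that of Mcm4-HA (HOP) in G1, with a median signal of 0.838 ± 0.0239, a log2 ratio of -0.68 to all bins. The 3 untagged anti-MYC libraries spread widely, with medians of 0.900, 1.06 and 1.29.

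**Figure D1:**
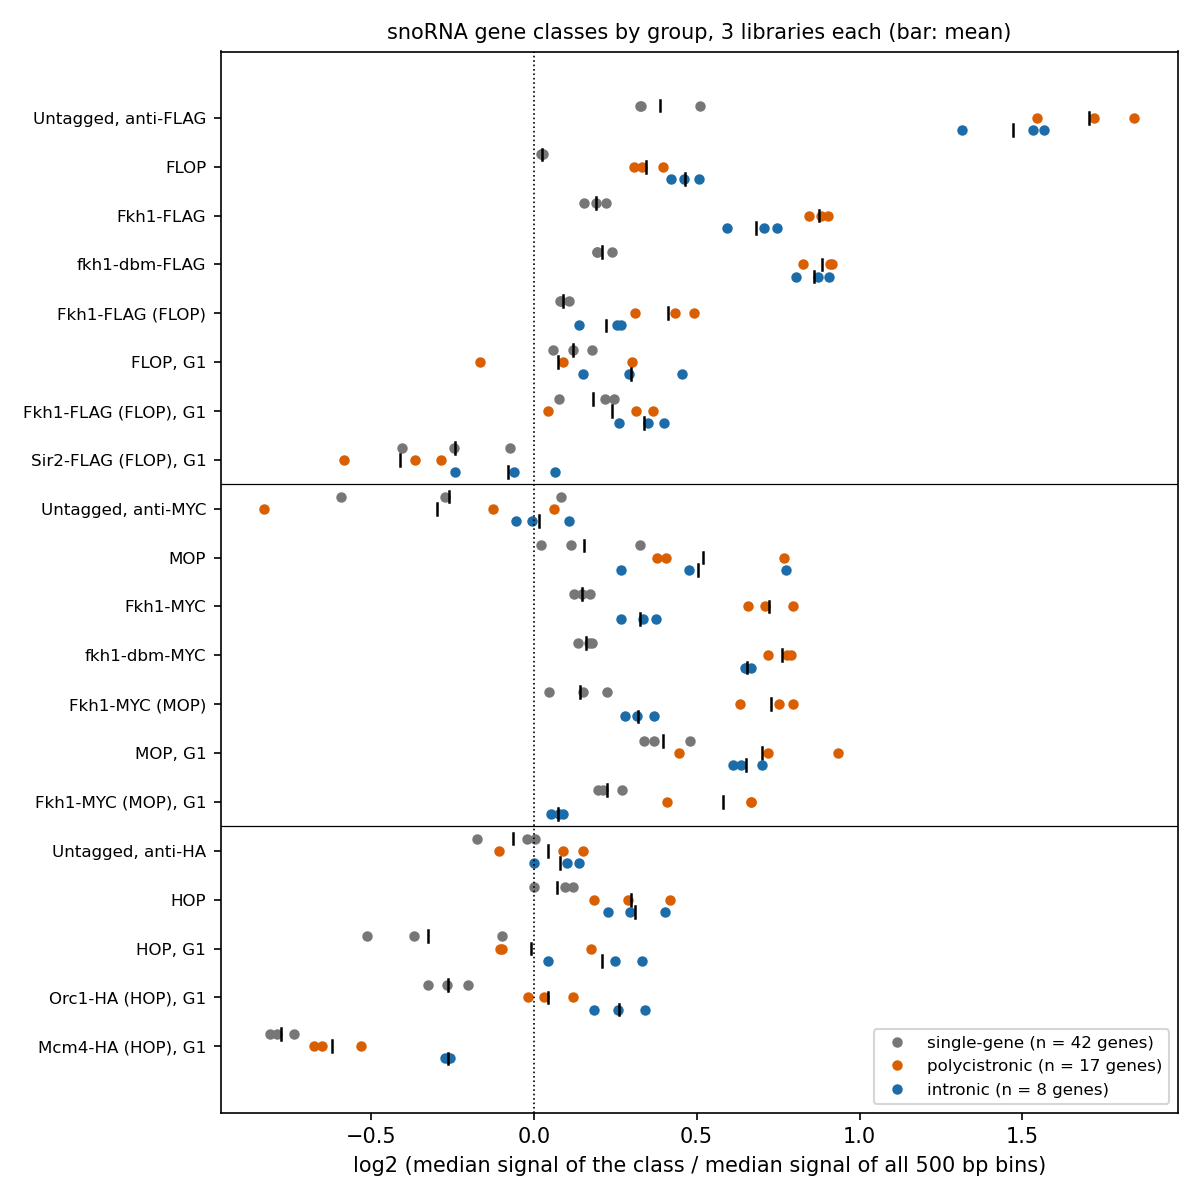
Log2 ratio of the median signal of single-gene, polycistronic and intronic snoRNA windows to the median of all 500 bp bins (horizontal axis) in the 20 groups (vertical axis, ordered by epitope), with a point per library and a bar at the mean. The untagged anti-FLAG IP stands highest, with means of 0.39 for single genes, 1.70 for polycistronic and 1.47 for intronic members, and Mcm4-HA (HOP) in G1 lowest.

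Gene organization ordered the levels in most groups. The intronic median was above that of single genes in 19 groups, in all 3 libraries of each, and the polycistronic median was above it in 17 groups, in all 3 libraries of 16. Between polycistronic and intronic members the order was split, with the polycistronic median higher in 10 of 20 groups. The median of box C/D genes was above that of box H/ACA genes in 15 groups. All 17 polycistronic members were box C/D genes, so organization and RNA type overlap. In the untagged anti-FLAG IP these medians were 1.14 (C/D) and 0.51 (H/ACA) above all bins on the log2 scale, whereas the tRNA genes, the RNA polymerase III loci counted in the same way, were at -0.18. The class medians of FLOP were closer together, at 0.02 for single genes, 0.35 for polycistronic and 0.46 for intronic members.

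Averaged along the DNA, the anti-FLAG signal of the untagged strain was a peak over the snoRNA gene itself. The median ratio over members to all bins was highest, 2.07, at 75 bp downstream of the gene middle, and for polycistronic members it was 3.57 at 25 bp. For intronic members the maximum of 3.08 stood 475 bp downstream, toward the 3′ part of the host gene. FLOP reached 1.23 at 25 bp and MOP 1.30 at 125 bp. Near the gene, the lowest ratio lay upstream of the middle in most groups. HOP in G1 had its minimum of 0.65 at 325 bp upstream, and Sir2-FLAG (FLOP) in G1 one of 0.69 at the same distance. Mcm4-HA (HOP) had 0.55 at 275 bp, Orc1-HA (HOP) 0.74 at 425 bp and untagged anti-HA 0.78 at 275 bp upstream. Shallower minima were 0.82 at 275 bp upstream in untagged anti-MYC, 0.91 at 425 bp in FLOP and 0.91 at 325 bp in unsynchronized HOP.

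**Figure D2:**
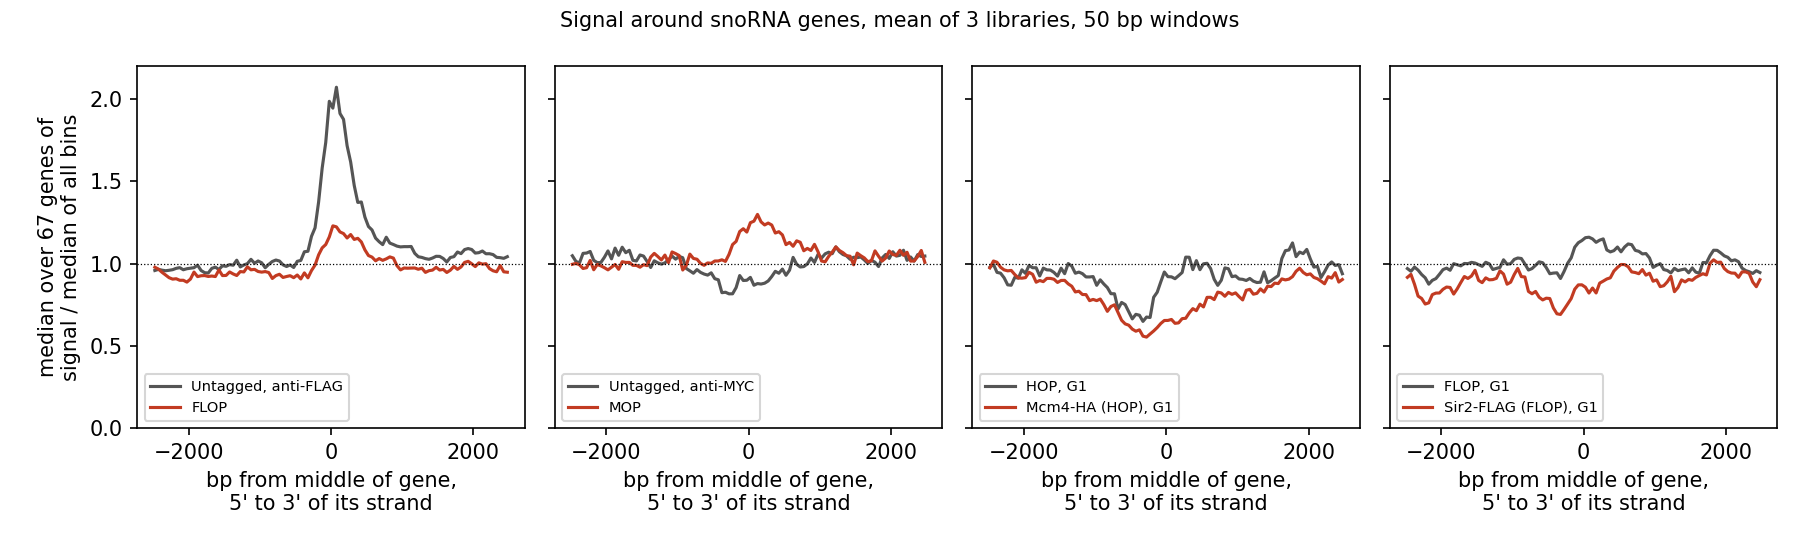
Median over the 67 snoRNA genes of the ratio of the signal to the median of all bins (vertical axis) against distance from the gene middle in bp (horizontal axis, upstream negative), in 4 panels of 2 groups each, each line being the mean of 3 libraries. The untagged anti-FLAG line reaches 2.07 over the gene and the FLOP line 1.23, while the lines of HOP and Mcm4-HA (HOP) in G1 dip to 0.65 and 0.55 upstream of it.

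Single members departed from the class order. In untagged anti-FLAG the highest member was SNR76 (window XIII 297551 to 298050), a methylation guide in the cluster of SNR72 to SNR78, at 6.38 ± 0.473 (SD, n = 3), and the lowest was SNR189 (III 178451 to 178950), an H/ACA gene between RPS14A and BPH1, at 0.853. SNR189 was the lowest member in 9 of the 20 groups and SNR39B (VII 366151 to 366650) in 4. SNR75 was the highest member in 4 groups, SNR61 in 4 and SNR63 in 3. SNR61 (XII 794301 to 794800), a box C/D gene of the SNR57-SNR55-SNR61 cluster, in which it is the last gene in the direction of transcription, between MID2 and RPS25B, led in Fkh1-MYC (MOP) in G1 at 4.76 and in Orc1-HA (HOP) at 4.40 ± 0.465. A member of that cluster, SNR55, led in MOP in G1 at 4.29 ± 0.263. SNR63 (IV 323101 to 323600), a box C/D gene between RPL31A and BRE1, led in FLOP in G1 at 3.46 ± 0.118. At the other end of the cluster of SNR72 to SNR78, SNR78 (XIII 297051 to 297550) was the lowest member in Sir2-FLAG (FLOP), at 0.452 ± 0.0522. A tRNA gene lay within 1000 bp of 7 members, namely SNR33, SNR46, SNR53, SNR67, SNR61, SNR55 and SNR57.

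Setting FLOP against the untagged strain asks how the anti-FLAG signal changes once an epitope is there to be bound, and 56 of the 67 members were lower in FLOP while 1 was higher. Among all bins 15.5% were lower and 7.05% higher at the same threshold, an adjusted p below 0.05 (edgeR quasi-likelihood test, Benjamini-Hochberg over all bins and members, with no minimum fold). All 17 polycistronic and all 8 intronic members were lower, with median log2 changes of -1.36 and -1.02, as were 31 of the 42 single genes, with a median of -0.46. The median over all members was -0.71 and that over all bins -0.05. The 10 members in neither count were SNR161, SNR33, SNR189, SNR63, SNR60, SNR85, SNR58, SNR81, SNR50 and SNR9.

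Genes with roles in pre-rRNA cleavage were among those that fell. SNR128, which encodes U14, had signals of 3.61, 3.43 and 4.14 in the untagged libraries and 1.07, 1.42 and 1.32 in FLOP, a log2 change of -1.64. SNR30, the H/ACA gene between AAT2 and ADE16 (XII 198851 to 199350), went from 3.69, 3.65 and 4.18 to 1.57, 1.65 and 1.95 (log2 change -1.20, SE 0.0912, adjusted p = 1.41e-21). The untagged values lay above the FLOP values throughout for both genes. SNR17B, 1 of the 2 genes for U3 (XVI 281051 to 281550), went from 3.44, 3.17 and 3.79 to 1.42, 1.47 and 1.42, a log2 change of -1.24 (SE 0.0910, adjusted p = 1.36e-22). Reads of SNR17B and its near-identical copy SNR17A, which was not used here, could have been assigned to either gene.

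The members with the largest fall were SNR77 and SNR76, guides for small-subunit and large-subunit rRNA methylation in the cluster of SNR72 to SNR78 between SEC59 and BUD22 (XIII 297051 to 298850). SNR77 had 6.20, 5.38 and 6.65 in the untagged IP and 1.74, 1.57 and 1.44 in FLOP (log2 change -1.98, SE 0.0948, adjusted p = 2.14e-35). SNR76 had 6.53, 5.85 and 6.76 against 1.76, 1.63 and 1.51 (log2 change -1.97, SE 0.0932, adjusted p = 7.47e-36). The groups were far apart at both genes, as the plot of the cluster shows. SNR72 at the distal end of the cluster was lower to start with, at 2.45, 2.27 and 2.92 in the untagged IP. Of the intronic genes, SNR24 in ASC1, a guide for large-subunit rRNA methylation, fell from 5.53, 5.15 and 5.54 to 1.75, 1.93 and 1.77 (log2 change -1.59, SE 0.0911, adjusted p = 1.10e-29).

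**Figure D3:**
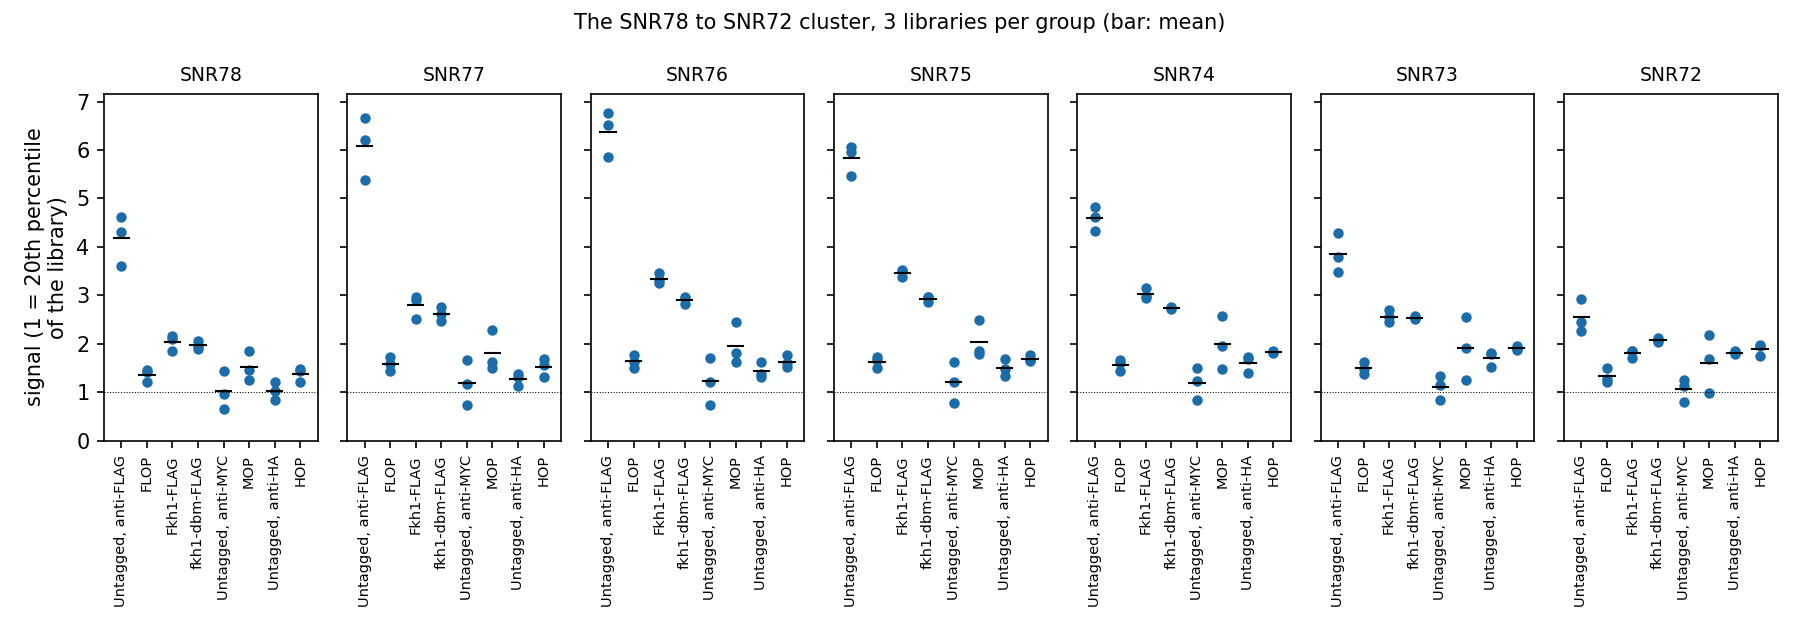
Signal (vertical axis, in units of the 20th percentile of the library) of the 7 members of the cluster of SNR72 to SNR78, 1 panel each in their order along the chromosome, in 8 unsynchronized groups, with a point per library and a bar at the mean. The untagged anti-FLAG IP stands above the other groups in each panel, with a mean of 6.38 at SNR76, and at SNR72 the groups lie closest together.

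SNR52 (V 430901 to 431400), a box C/D gene between PMD1 and GLC7 that is transcribed by RNA polymerase III, was the 1 member higher in FLOP. Its signals were 1.08, 1.08 and 1.30 in the untagged libraries and 1.40, 1.46 and 1.48 in FLOP, with no overlap (log2 change 0.38, SE 0.0959, adjusted p = 0.00133). In fkh1-dbm-FLAG it was 1.43, 1.59 and 1.51 (log2 change 0.40 against the same untagged libraries, SE 0.0925, adjusted p = 0.00136). Of 242 nuclear tRNA genes tested, which are also made by RNA polymerase III, 102 were higher in FLOP and 5 lower, with a median log2 change of 0.23.

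Protein-coding genes of the snoRNA pathway were read in FLOP against untagged in the genome bin at their middle. The 3 tested genes for box C/D core proteins were all lower, with a median log2 change of -0.65, and 3 of the 4 for H/ACA core proteins, with a median of -0.36. Of 10 genes for snoRNA 3′ end formation and processing 5 were lower (median -0.23), and of 8 assembly factors 2 were higher (median -0.03). None of the 4 genes for snoRNA promoter factors was called (median -0.11). The 8 host genes of intronic snoRNAs were all lower, at a median of -1.21, but their bins and the windows of the intronic members can hold the same reads.

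MOP and HOP gave other counts against their own untagged IPs. The MOP libraries held 3748500 to 4968334 summed window counts and those of untagged anti-MYC 2116658 to 4497029. The FLOP libraries held 18250930 to 34980332 and those of untagged anti-FLAG 33195118 to 41625324. What this gap in depth does to the number of calls was not tested. In MOP 3 members were higher and 0 lower (0.0479% of bins were higher and 0.0479% lower), with a median log2 change of 0.39 over members and -0.06 over bins. The counts at an unadjusted p below 0.05 were 26 higher and 0 lower, and DESeq2 called 1 higher and 0 lower. For SNR128 and SNR190 DESeq2 gave log2 changes of 1.18 and 0.98 but no adjusted p. Here and below, shares of bins belong only to edgeR calls at an adjusted p below 0.05. Counts at other settings have no such share beside them, so they do not show how members compare with the genome there. All 3 members called higher by edgeR were polycistronic. SNR128 was at 0.775, 0.886 and 0.905 in untagged anti-MYC and 1.60, 1.66 and 2.01 in MOP (log2 change 1.18, SE 0.217, adjusted p = 0.00385). Its neighbor SNR190, a guide for large-subunit rRNA methylation, was at 0.700, 1.00 and 0.890 against 1.56, 1.64 and 2.0 (log2 change 0.98, SE 0.219, adjusted p = 0.0411), and SNR61 changed by 0.94 on the log2 scale (SE 0.212, adjusted p = 0.0426). The MOP libraries were above the untagged ones at both SNR128 and SNR190, whose windows overlap. Every library weighed on these calls: 8 members were higher without untagged anti-MYC library 3, 1 without untagged library 1 or MOP library 2, and 0 without untagged library 2, MOP library 1 or MOP library 3. The adjusted p of SNR128 became 0.0838, 0.0567 and 0.342 in those last 3 cases.

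In HOP 6 members were higher and 0 lower than in the untagged anti-HA IP, beside 1.22% and 0.551% of bins, with a median log2 change of 0.18. With an unadjusted p below 0.05 there were 22 higher and 1 lower, and DESeq2 called 3 higher and 0 lower. SNR190 was at 0.973, 1.32 and 1.16 in untagged anti-HA and 1.68, 1.40 and 1.73 in HOP (log2 change 0.53, SE 0.116, adjusted p = 0.0013). SNR18 in EFB1, the gene of the methylation guide U18, was at 0.862, 1.07 and 1.26 against 1.36, 1.49 and 1.44 (log2 change 0.44, SE 0.116, adjusted p = 0.0172). Groups did not overlap at either gene, as the choice of these members required of their scaled counts. The other 4 were SNR53, SNR54, SNR78 and SNR17B. Without untagged anti-HA library 1 the count was 0, and without HOP library 2 or HOP library 3 it was 3. SNR18 had an adjusted p of 0.0600 by DESeq2.

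The changes themselves were then compared between epitopes, in 1 fit of the 4 groups concerned. The change to MOP exceeded the change to FLOP at 45 members and fell below it at 0 (3.91% and 2.27% of bins), with a median difference of 1.23 on the log2 scale. These counts were 55 and 0 at an unadjusted p below 0.05, by edgeR, and no other tool was run on differences. All 17 polycistronic and all 8 intronic members were among the 45, and the difference was 2.82 for SNR128 (SE 0.216, adjusted p = 1.04e-10), 2.40 for SNR77 and 1.90 for SNR24. It was 0.11 for SNR52 (adjusted p = 0.877) and 0.09 for SNR63 (adjusted p = 0.909). The change to FLOP was below that to HOP at 51 members and above it at 0 (9.17% and 4.49% of bins, with 56 and 0 members at an unadjusted p below 0.05), led by SNR77 at -2.24 (SE 0.150, adjusted p = 1.65e-27) and with SNR52 at 0.06 (adjusted p = 0.862). Between MOP and HOP, 0 members differed in either direction (0.163% of bins higher in MOP and 0.024% lower), although 10 were higher and 0 lower at an unadjusted p below 0.05. The 2 differences that involve FLOP share the FLOP and untagged anti-FLAG libraries. The 2 that involve MOP share the MOP and untagged anti-MYC libraries, which held fewer counts. What depth does to these differences was not tested.

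The tagged Fkh1 strains without a LexA control were likewise set against the untagged IPs. These comparisons share the untagged libraries with the ones above. Fkh1-FLAG had 45 members lower and 4 higher (13.9% and 13.6% of bins), with a median log2 change of -0.53, and fkh1-dbm-FLAG 40 lower and 1 higher (6.37% and 4.25% of bins), with a median of -0.33. All 8 intronic members were lower in both. In Fkh1-FLAG 16 of the 17 polycistronic members and 21 of the 42 single genes were lower. In the mutant all 17 polycistronic members and 15 single genes were lower. SNR190 had 4.19, 3.98 and 4.70 in the untagged IP and 1.93, 2.16 and 1.94 in Fkh1-FLAG (log2 change -1.14, SE 0.0950, adjusted p = 1.70e-20), and SNR17B fell to 1.52, 1.39 and 1.51 there (log2 change -1.20, SE 0.0962, adjusted p = 1.83e-21). In the mutant SNR77 was at 2.75, 2.48 and 2.61 (log2 change -1.24, SE 0.0830, adjusted p = 4.11e-19). The tagged libraries were below the untagged ones at all 3 genes.

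The 4 members higher in Fkh1-FLAG were SNR33, SNR161, SNR69 and SNR49. SNR33 (III 142201 to 142700), a pseudouridylation guide for large-subunit rRNA between CTO1 and RBP95, was at 0.941, 0.975 and 1.01 in the untagged IP and 1.49, 1.26 and 1.65 in Fkh1-FLAG, without overlap (log2 change 0.66, SE 0.104, adjusted p = 8.00e-08). SNR161 (II 307001 to 307500), an H/ACA gene, was at 0.870, 0.888 and 0.916 against 1.04, 1.01 and 1.29 (log2 change 0.36, SE 0.114, adjusted p = 0.0117). Without untagged library 2 the count of higher members was 1 in place of 4. The call of SNR161 was lost without that library (adjusted p = 0.0505) or Fkh1-FLAG library 3 (adjusted p = 0.204).

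With the MYC tag the counts ran the other way. The untagged anti-MYC libraries held 2116658 to 4497029 summed window counts, those of Fkh1-MYC 30914037 to 32662282 and those of fkh1-dbm-MYC 24631197 to 31039155. What this gap in depth does to the calls was not tested. Fkh1-MYC had 23 members higher and 2 lower than untagged anti-MYC (9.27% and 7.18% of bins, median -0.11), with a median of 0.32 over members: 13 of the 17 polycistronic members and 10 single genes were higher, and 0 intronic ones. The mutant fkh1-dbm-MYC had 21 higher and 0 lower (3.54% and 2.37% of bins, median -0.12), 13 of them polycistronic. At an unadjusted p below 0.05 the counts for the mutant were 36 and 1, and DESeq2 called 30 and 0. SNR53 (V 61501 to 62000), a guide for small-subunit rRNA methylation beside SNR67 between RML2 and PAU2, was at 0.458, 1.07 and 1.26 in the untagged IP and 2.81, 2.68 and 3.09 in Fkh1-MYC (log2 change 1.68, SE 0.239, adjusted p = 0.000176). SNR40 (XIV 89001 to 89500), a methylation guide between PCL1 and CAF40, was at 0.558, 0.759 and 1.11 against 2.27, 2.10 and 2.38 (log2 change 1.50, SE 0.202, adjusted p = 0.000103). The Fkh1-MYC libraries were above the untagged ones at both genes by more than the range of the untagged libraries. Between 13 and 14 members were called without any 1 of the Fkh1-MYC libraries.

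In fkh1-dbm-MYC, SNR128 had 1.91, 1.73 and 1.82 (log2 change 1.21, SE 0.154, adjusted p = 0.000258) and SNR74, a guide in the cluster of SNR72 to SNR78, had 2.58, 2.84 and 2.37 against 0.833, 1.24 and 1.50 in the untagged IP (log2 change 1.13, SE 0.160, adjusted p = 0.000556). Both stood above all 3 untagged libraries. Without untagged anti-MYC library 3 the mutant had 35 members called, and without its own libraries 1, 2 and 3 it had 9, 7 and 11. The 2 members lower in Fkh1-MYC were SNR189, with 0.746, 0.744 and 0.787 against 0.783, 0.866 and 1.31 (log2 change -0.57, SE 0.187, adjusted p = 0.0482), and the methylation guide SNR58, with 0.762, 0.885 and 0.836 against 1.25, 1.23 and 1.01 (log2 change -0.48, SE 0.158, adjusted p = 0.0485). The groups overlapped slightly in signal at SNR189 and did not at SNR58. Both calls were lost with TMM scaling (adjusted p = 0.0907 for SNR189 and 0.0914 for SNR58) and with the replicate block (adjusted p = 0.0659 and 0.0894), and that of SNR58 in the genome bin at its middle (adjusted p = 0.0673). SNR189 also lost it without untagged library 3 or any Fkh1-MYC library (adjusted p up to 0.175), and SNR58 without untagged library 2 or any Fkh1-MYC library (adjusted p up to 0.201).

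The Fkh1 strains that also carry a LexA fusion were set against the LexA controls. Fkh1-MYC (MOP) had 12 members higher and 0 lower than MOP (8.37% and 1.13% of bins), with medians of 0.05 over members and 0.01 over bins. The lower count was 5 at an unadjusted p below 0.05 and 0 by DESeq2, and with TMM scaling the split was 8 higher and 2 lower. Fkh1-FLAG (FLOP) had 11 higher and 7 lower than FLOP (12.3% and 6.56% of bins), with medians of -0.01 over members and -0.02 over bins. Both comparisons called SNR53, SNR66, SNR69, SNR73, SNR74, SNR75 and SNR76 higher, 7 of the 12 and 7 of the 11, and 0 members were called in opposite directions. SNR73 to SNR76 are neighbors in 1 cluster, with overlapping windows. The share of bins called in both comparisons is not given here. The 12 also held SNR33, SNR67, SNR10, SNR40 and SNR50, and the 11 also held SNR161, SNR43, SNR87 and SNR49. Without MOP library 2 or Fkh1-MYC (MOP) library 3 the 12 higher members became 6, and 1 member was lower without MOP library 1, MOP library 2 or Fkh1-MYC (MOP) library 1. With FLAG the 11 higher members became 7 without FLOP library 2 or FLOP library 3 and 6 without Fkh1-FLAG (FLOP) library 3, and the 7 lower ones became 3 without FLOP library 2 or Fkh1-FLAG (FLOP) library 2.

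SNR53, SNR66, SNR69 and SNR75 were higher with both tags, against the LexA control and against the DNA-binding mutant. The share of bins higher in all of these comparisons is not given either. In untagged anti-FLAG the mean signals of these members were 2.36, 2.72, 1.33 and 5.83. Fkh1-FLAG had 2.52, 2.59, 1.80 and 3.47, and Fkh1-FLAG (FLOP) had 1.89, 1.65, 1.645 and 2.06. Only SNR69 was thus higher in both than in the untagged strain. At all of them untagged anti-MYC was below Fkh1-MYC and Fkh1-MYC (MOP). A tRNA gene lay 101 bp from SNR53, and its reads can enter that window. At SNR53 MOP gave 1.40, 1.13 and 1.59 and Fkh1-MYC (MOP) 2.68, 3.03 and 3.13, well apart (log2 change 1.12, SE 0.172, adjusted p = 1.78e-07). With FLAG, FLOP gave 1.40, 1.23 and 1.36 and Fkh1-FLAG (FLOP) 1.84, 1.86 and 1.98 (log2 change 0.61, SE 0.0968, adjusted p = 1.06e-06). At SNR69 (XI 364601 to 365100), a methylation guide for large-subunit rRNA between PTM1 and RGT1, MOP gave 1.28, 1.02 and 1.33 and Fkh1-MYC (MOP) 2.70, 2.25 and 2.96 (log2 change 1.03, SE 0.169, adjusted p = 1.21e-06). FLOP gave 0.874, 0.955 and 0.916 there, and Fkh1-FLAG (FLOP) 1.62, 1.60 and 1.72 (log2 change 0.86, SE 0.0910, adjusted p = 1.75e-11). SNR69 was thus below the 67-member median in FLOP and above it with Fkh1.

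SNR66 and SNR75, also methylation guides for large-subunit rRNA, changed less. At SNR66 (XIV 585901 to 586400), between SSN8 and KSH1, MOP gave 1.34, 1.45 and 1.94 and Fkh1-MYC (MOP) 2.56, 2.57 and 2.62 (log2 change 0.72, SE 0.166, adjusted p = 0.000916). The FLAG pair gave 1.41, 1.49 and 1.26 against 1.61, 1.62 and 1.72 (log2 change 0.26, SE 0.0952, adjusted p = 0.0468). At SNR75 the changes were 0.61 with MYC (SE 0.162, adjusted p = 0.00493) and 0.45 with FLAG (SE 0.0998, adjusted p = 0.000539), on a MOP level of 1.85, 1.79 and 2.48 and a FLOP level of 1.73, 1.66 and 1.50. Neither gene's groups overlapped with either tag.

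Falls against FLOP included intronic genes. SNR191 in NOG2, a pseudouridylation guide, was at 1.29, 1.66 and 1.64 in FLOP and 1.29, 1.14 and 1.17 in Fkh1-FLAG (FLOP), so that the groups touched at 1.29 (log2 change -0.43, SE 0.0956, adjusted p = 0.000468). SNR38 in TEF4, a methylation guide, was at 1.79, 1.76 and 1.55 against 1.29, 1.37 and 1.35, without overlap (log2 change -0.39, SE 0.0928, adjusted p = 0.00115). The other members lower there were SNR18, SNR54, SNR63, SNR83 and SNR86.

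**Figure D4:**
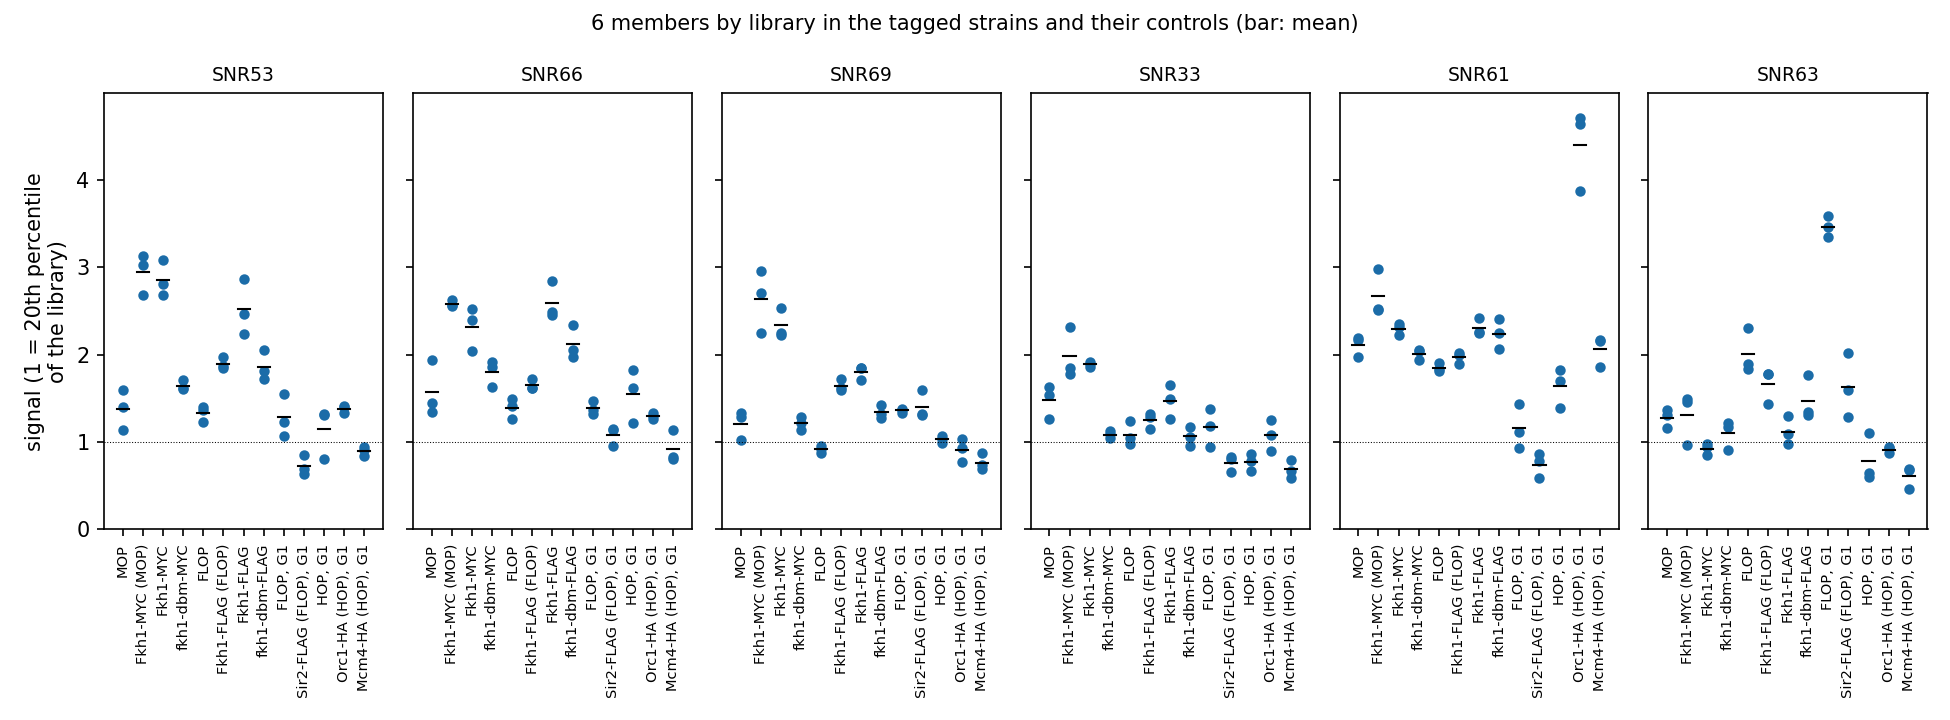
Signal (vertical axis, in units of the 20th percentile of the library) of SNR53, SNR66, SNR69, SNR33, SNR61 and SNR63, 1 panel each, in tagged strains and their controls, with a point per library and a bar at the group mean. SNR69 stands at 0.874 to 0.955 in FLOP and 1.60 to 1.72 in Fkh1-FLAG (FLOP), SNR61 at 3.87 to 4.71 in Orc1-HA (HOP), and SNR63 at 3.35 to 3.58 in FLOP in G1. Untagged groups are not shown.

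The comparison of Fkh1 with its DNA-binding mutant asks which signal depends on that domain. Fkh1-MYC had 16 members higher and 22 lower than fkh1-dbm-MYC (18.9% and 14.4% of bins), with a median of -0.12, and all 8 intronic members were lower. Fkh1-FLAG had 7 higher and 13 lower than fkh1-dbm-FLAG (11.4% and 6.74% of bins), also with a median of -0.12, and 3 intronic members were lower. All 7 of the FLAG members, SNR161, SNR33, SNR49, SNR53, SNR66, SNR69 and SNR75, were among the 16 of MYC, and 12 of the 13 lower ones were among the 22. The share of bins called alike with both tags is not given here. Without fkh1-dbm-FLAG library 1 the 7 higher members became 4.

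SNR33 changed about as much as SNR53 and SNR69 here. It stood at 1.86, 1.92 and 1.89 in Fkh1-MYC and 1.04, 1.12 and 1.08 in the mutant, far outside the range of either group (log2 change 0.89, SE 0.0909, adjusted p = 1.81e-13). The FLAG values were 1.49, 1.26 and 1.65 against 1.06, 1.17 and 0.953 (log2 change 0.52, SE 0.103, adjusted p = 6.48e-05). SNR53 was at 1.61, 1.61 and 1.70 in fkh1-dbm-MYC, a log2 change of 0.92 for Fkh1-MYC over the mutant (SE 0.0859, adjusted p = 4.55e-15), and at 1.72, 2.05 and 1.81 in fkh1-dbm-FLAG against 2.23, 2.46 and 2.86 in Fkh1-FLAG (log2 change 0.54, SE 0.0884, adjusted p = 9.66e-07). The groups were apart with both tags. A tRNA gene lay 155 bp from SNR33 and 101 bp from SNR53, so reads from it or its flank can enter these windows. SNR69 was at 1.13, 1.29 and 1.21 in fkh1-dbm-MYC and 2.25, 2.22 and 2.53 in Fkh1-MYC (log2 change 0.89, SE 0.0892, adjusted p = 9.54e-14). With FLAG the SNR69 change was 0.36 (SE 0.0901, adjusted p = 0.00169).

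On the lower side, the intronic SNR24 was at 1.64, 1.79 and 1.71 in Fkh1-MYC and 2.79, 2.36 and 2.26 in the mutant, without overlap (log2 change -0.55, SE 0.0887, adjusted p = 4.27e-07). SNR58 changed by -0.42 (SE 0.107, adjusted p = 0.00138). With FLAG, SNR42, a pseudouridylation guide for large-subunit rRNA, was at 1.09, 1.08 and 0.820 against 1.45, 1.43 and 1.27 in the mutant (log2 change -0.46, SE 0.108, adjusted p = 0.000838). SNR63 was at 1.29, 0.970 and 1.09 against 1.31, 1.77 and 1.34, a call (log2 change -0.41, SE 0.104, adjusted p = 0.00261) that was lost without mutant library 2 (adjusted p = 0.18) or Fkh1-FLAG library 2 (adjusted p = 0.0517).

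In G1 cells 1 member was higher and 8 were lower in Fkh1-MYC (MOP) than in MOP (12.1% and 2.79% of bins), with a median of -0.23 over members and 0.02 over bins. SNR69 was the higher one, at 1.38, 0.960 and 2.06 in MOP and 2.47, 2.36 and 2.93 with Fkh1-MYC (log2 change 0.73, SE 0.211, adjusted p = 0.0094). Its groups did not overlap, and the call was lost without MOP library 2 (adjusted p = 0.143) or Fkh1-MYC (MOP) library 3 (adjusted p = 0.0996). SNR65, a box C/D gene, was at 1.65, 1.84 and 1.59 against 0.971, 0.859 and 1.09 (log2 change -0.85, SE 0.232, adjusted p = 0.0049). SNR189 was at 1.56, 1.34 and 1.17 against 0.476, 1.09 and 0.574 (log2 change -1.01, SE 0.284, adjusted p = 0.00724), and its call was lost without library 1 of either group (adjusted p = 0.0684 and 0.0621). The Fkh1-MYC (MOP) libraries were the lower ones throughout at SNR65 and SNR189. The other lower members were SNR63, SNR4, SNR72, SNR59, SNR17B and SNR51. SNR59 lies in RPL7B and SNR39 in RPL7A, and any reads that match both places could have been assigned to either. The 8 lower members became 4 without MOP library 3 or Fkh1-MYC (MOP) library 2, and 5 without Fkh1-MYC (MOP) library 1 or library 3.

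With FLAG in G1, 1 member was higher and 0 lower (2.39% and 0.0431% of bins). At an unadjusted p below 0.05 there were 3 higher and 0 lower, and DESeq2 called 1 and 0. SNR53 was at 1.23, 1.55 and 1.07 in FLOP and 1.68, 1.85 and 1.60 in Fkh1-FLAG (FLOP), without overlap (log2 change 0.50, SE 0.147, adjusted p = 0.0458), but its call was lost without any 1 of the 6 libraries (adjusted p from 0.063 to 0.356). The difference between the Fkh1 change in G1 and in unsynchronized cells was called at 0 members with MYC (1.42% of bins higher, 0.24% lower) and at 0 with FLAG (0.196% higher, 1.23% lower). At an unadjusted p below 0.05, edgeR gave 0 members higher and 9 lower with MYC, and 5 higher and 3 lower with FLAG. For SNR69 with FLAG this difference was -0.54 (adjusted p = 0.077).

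Orc1 and Mcm4 were each compared with HOP in G1, and the 2 comparisons share the HOP libraries. Orc1-HA (HOP) had 2 members higher and 0 lower (6.73% and 4.9% of bins), with medians of 0.01 over members and -0.11 over bins. At an unadjusted p below 0.05 there were 7 higher and 2 lower, and DESeq2 called 2 and 0. SNR61 was at 1.83, 1.69 and 1.39 in HOP and 4.71, 4.64 and 3.87 in Orc1-HA, without overlap and with the largest log2 change of the 67 members in this comparison (log2 change 1.34, SE 0.175, adjusted p = 5.88e-09). In the genome bin at the middle of SNR61, which is offset from its window, the log2 change was 0.47 (adjusted p = 0.0711). SNR40 was at 1.30, 1.36 and 0.941 against 2.52, 3.02 and 2.13, without overlap (log2 change 1.11, SE 0.184, adjusted p = 2.92e-06).

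Mcm4-HA (HOP) had 24 members lower and 0 higher than HOP (5.87% and 4.21% of bins), with a median of -0.50 over members and -0.10 over bins. The lower members were 13 single genes, 9 polycistronic and 2 intronic ones, and the counts at an unadjusted p below 0.05 were 37 lower and 0 higher (DESeq2, 28 and 0). SNR3, a pseudouridylation guide for large-subunit rRNA (X 663601 to 664100), was at 1.32, 1.13 and 1.56 in HOP and 0.639, 0.432 and 0.623 in Mcm4-HA (log2 change -1.39, SE 0.239, adjusted p = 1.00e-05). SNR30 was at 2.43, 2.07 and 1.59 against 1.02, 1.01 and 1.02 (log2 change -0.99, SE 0.188, adjusted p = 7.06e-05). Neither gene's libraries overlapped. SNR39B was at 0.785, 1.06 and 0.550 against 0.505, 0.335 and 0.366 (log2 change -1.13, SE 0.302, adjusted p = 0.00727), and its call was lost in the genome bin at its middle (adjusted p = 0.178), without HOP library 2 (adjusted p = 0.181) and without Mcm4-HA library 3 (adjusted p = 0.0703). SNR61 was at 2.16, 1.85 and 2.17 in Mcm4-HA, which did not pass the test (log2 change 0.29, adjusted p = 0.352). Without Mcm4-HA library 3, 11 members were lower. The tRNA genes moved in the same sense, with 43 lower and 14 higher of 242 and a median of -0.35.

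Sir2-FLAG (FLOP) had 22 members lower and 1 higher than FLOP in G1 (7.85% and 22.8% of bins), with medians of -0.23 over members and 0.16 over bins. TMM scaling moved the bin median to -0.01 and the total of called members to 39. SNR78, a guide for large-subunit rRNA methylation, was at 1.17, 1.27 and 1.13 in FLOP and 0.508, 0.406 and 0.442 in Sir2-FLAG (log2 change -1.54, SE 0.178, adjusted p = 4.40e-10). Next to it, SNR77 was at 1.35, 1.54 and 1.46 against 0.834, 0.670 and 0.719 (log2 change -0.90, SE 0.146, adjusted p = 2.88e-06) and SNR76 at 1.51, 1.68 and 1.57 against 1.23, 0.996 and 1.04 (log2 change -0.55, SE 0.157, adjusted p = 0.00564). The size of the fall thus decreased from SNR78 through SNR77 to SNR76, the window of SNR77 overlapping both of the others, and the libraries of the 2 groups did not overlap at any of them. SNR63 was at 3.46, 3.58 and 3.35 against 1.28, 1.59 and 2.02 (log2 change -1.21, SE 0.212, adjusted p = 1.44e-05). SNR44 in RPS22B, an H/ACA gene, was the higher one, at 1.46, 1.65 and 1.34 against 2.67, 2.30 and 2.14 (log2 change 0.68, SE 0.188, adjusted p = 0.00488). For comparison, 50 of the 242 tRNA genes were lower and 13 higher, with a median of -0.14.

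The LexA controls themselves differed between G1 and unsynchronized cells. MOP in G1 had 26 members higher and 0 lower (16.8% and 3.01% of bins), with a median of 0.37 over members and 0.15 over bins. At an unadjusted p below 0.05 the counts were 30 and 0, and DESeq2 called 28 and 0. TMM scaling moved the bin median to -0.01 and the count to 13 members. SNR55, a guide for small-subunit rRNA methylation, was at 1.93, 1.74 and 2.11 in unsynchronized MOP and 4.11, 4.59 and 4.17 in G1 (log2 change 1.25, SE 0.188, adjusted p = 5.66e-07). Its neighbor SNR57 changed by 1.18 (SE 0.192, adjusted p = 3.30e-06), and SNR44 went from 1.13, 1.56 and 2.15 to 3.19, 3.35 and 4.33 (log2 change 1.24, SE 0.204, adjusted p = 4.49e-06). The G1 values were above the unsynchronized ones throughout at SNR55 and SNR44. SNR30 rose by 0.77 (SE 0.203, adjusted p = 0.00405) and SNR52 by 0.67 (SE 0.197, adjusted p = 0.0108), the latter from 1.55, 1.22 and 1.59 to 2.58, 2.03 and 2.15. Without MOP library 2 the count was 12, and without MOP library 1 or G1 MOP library 3 it was 15. Of the 242 tRNA genes 80 were higher and 1 lower, with a median of 0.32.

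FLOP in G1 had 13 members higher and 6 lower (16.4% and 4.69% of bins), with medians of 0.06 over members and 0.08 over bins. With TMM scaling the split was 9 higher and 11 lower. Without FLOP library 1 the 13 higher members became 6, and without FLOP library 2 they became 8. SNR63 rose from 1.83, 2.30 and 1.89 to 3.46, 3.58 and 3.35, without overlap (log2 change 0.93, SE 0.117, adjusted p = 1.67e-08), and SNR69 to 1.33, 1.37 and 1.38 from 0.874, 0.955 and 0.916 (log2 change 0.59, SE 0.116, adjusted p = 0.000135). The higher members were 12 single genes and the intronic SNR191. Of the 6 lower ones 5 were polycistronic. SNR61 went from 1.90, 1.81 and 1.83 to 1.11, 1.43 and 0.929 (log2 change -0.71, SE 0.130, adjusted p = 5.11e-05) and SNR55 from 2.02, 1.82 and 1.78 to 1.26, 1.43 and 0.896 (log2 change -0.67, SE 0.134, adjusted p = 0.000203). The cluster of SNR61 therefore had the higher libraries in G1 with MOP and the lower ones with FLOP; the difference between these changes was not tested.

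HOP in G1 had 3 members higher and 9 lower than unsynchronized HOP (28.2% and 3.02% of bins), with medians of -0.13 over members and 0.23 over bins. TMM scaling moved the bin median to 0.00 and the split to 0 higher and 22 lower. SNR55 was at 1.22, 1.08 and 1.34 in unsynchronized cells and 1.85, 1.81 and 1.46 in G1 (log2 change 0.61, SE 0.152, adjusted p = 0.00529), and SNR57 at 1.20, 1.02 and 1.29 against 1.67, 2.04 and 1.47 (log2 change 0.56, SE 0.159, adjusted p = 0.0108). Both calls were lost with TMM scaling, at log2 changes of 0.38 for SNR55 and 0.33 for SNR57, and that of SNR57 also without HOP library 2 of either culture. The third was SNR44. On the lower side SNR51 went from 1.34, 1.46 and 1.70 to 0.703, 1.11 and 1.03 (log2 change -0.71, SE 0.174, adjusted p = 0.00466), which was lost without unsynchronized HOP library 3 (adjusted p = 0.0585), and SNR67 from 1.46, 1.29 and 1.40 to 1.02, 0.836 and 0.746 (log2 change -0.70, SE 0.166, adjusted p = 0.00391). The G1 libraries of SNR51 and SNR67 lay below the unsynchronized ones. Without unsynchronized HOP library 1, 2 or 3 the 9 lower members became 3, 4 and 2, and the 3 higher ones became 1 without library 2.

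**Figure D5:**
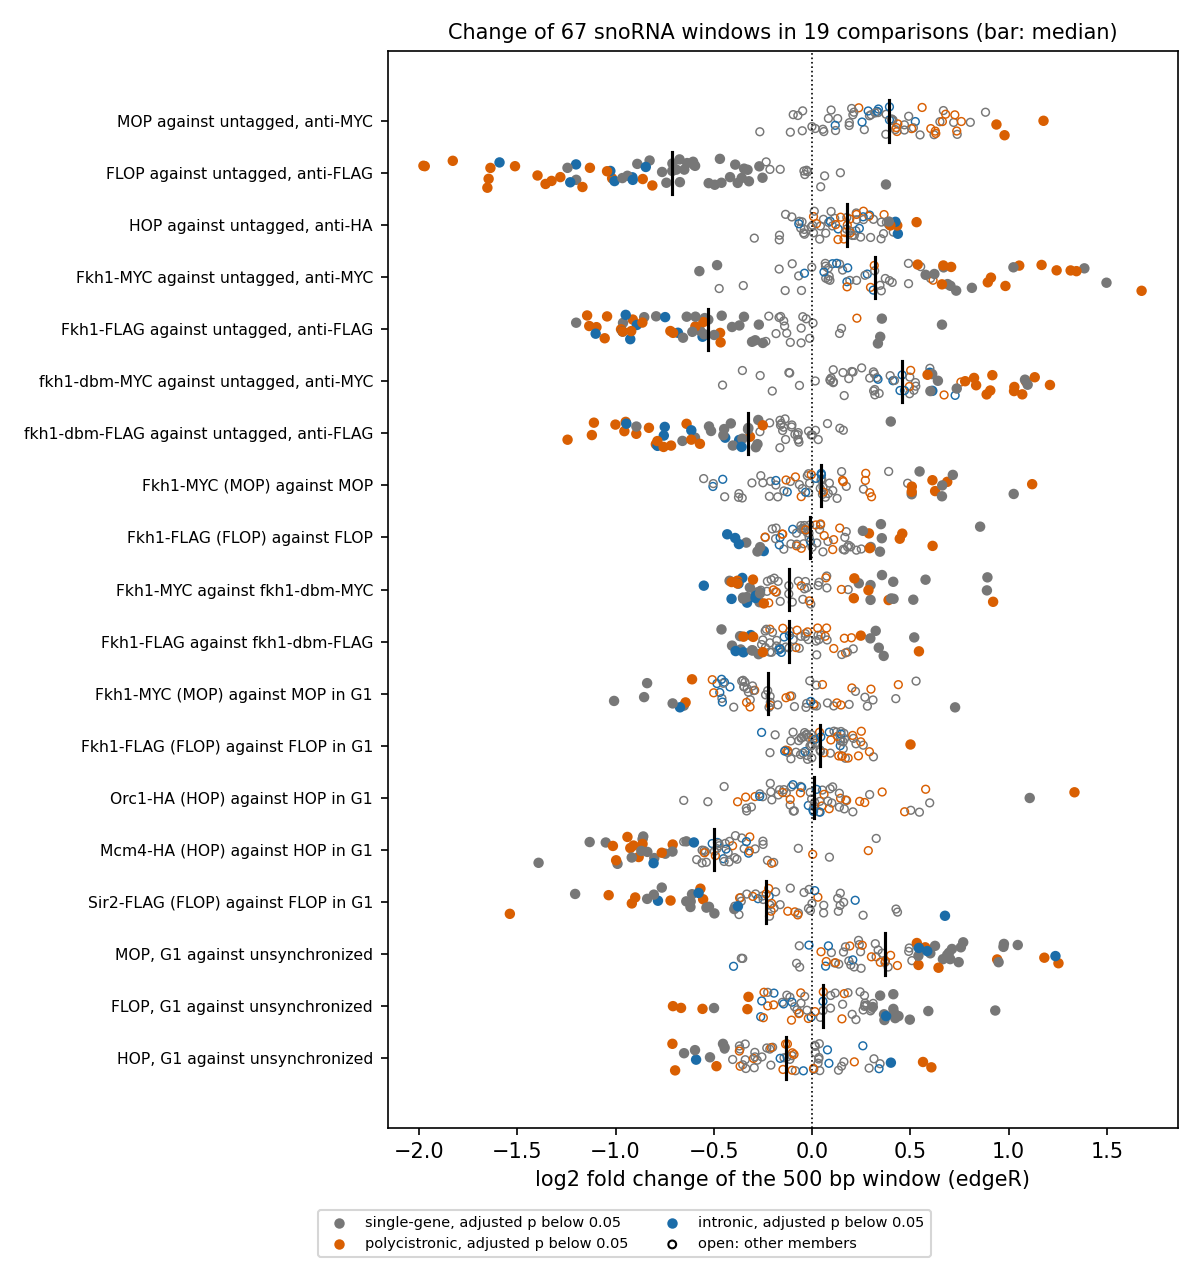
Log2 change of each of the 67 snoRNA windows (horizontal axis, points colored by single-gene, polycistronic or intronic and filled where the adjusted p was below 0.05) in the 19 comparisons (vertical axis), with a bar at the median of the members. In FLOP against untagged the points reach from -1.98 at SNR77 to 0.38 at SNR52, and in MOP against untagged from -0.27 to 1.18 at SNR128.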

How the data were processed

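ChIP DNA was sequenced by the authors, who, per the submitters' processing notes, used Bowtie2, SAMtools and bedtools. Duplicate reads were removed. The deposited files hold raw counts of reads over 50 bp windows, which the authors did not scale. Reads that span several windows were counted in each, so neighboring counts are not independent. The genome build is not given in the sources used here, and the last windows of the chromosomes end at the R64 lengths. Gene positions came from a table of the R64 assembly, and printed positions are the windows of the files.

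Samples were grouped by the strain, antibody and culture in the labels. Windows were smoothed by a moving median (10 windows), divided by the library's 20th percentile and averaged over 500 bp per gene. Strand was read from the last letter of the locus tag, and intronic means inside the span of a protein-coding gene. Each of 19 comparisons was fitted to the 2 groups concerned with edgeR 4.0.16 (glmQLFit, glmQLFTest) on unsmoothed counts summed over 500 bp, for 20941 genome bins and the 67 snoRNA windows together, with library sizes from the 20th percentile, a minimum of 10 counts in 3 or more libraries, Benjamini-Hochberg adjustment and a call at an adjusted p below 0.05. The standard error is the size of the log2 change divided by the square root of F. All 67 members passed the count minimum. Genes of the other lists were tested in the bin at their middle, not in a centred window as the design had it, and 1 list gene was not matched. DESeq2 1.42.0, with its mean trend where others could not be fitted, TMM scaling, a minimum log2 change of 1, no minimum count, a replicate block, the genome bin and leaving out each library were alternatives. The 5 differences between changes, and their alternatives, were added after the data were seen. The fit was tested on simulated counts. R was 4.3.3, Python 3.11.15, matplotlib 3.10.9, pandas 2.3.3 and numpy 2.4.6.

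Members and lists were chosen with earlier results of these data known. The members given in detail were, per comparison, the 2 with the largest rise and the 2 with the largest fall among those called and changed alike in all 9 pairs of libraries, the highest and lowest of each group, SNR52, SNR17B, SNR128, SNR190, SNR30, the intronic genes and the cluster of SNR72 to SNR78. Other members are named where a count or a pattern across groups turns on them, and those were chosen after their values were seen. Sequences were not used here.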

Additional observations from a re-analysis of the deposited data

Results flagged for a closer look

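The change from the untagged IP to the LexA control differed between epitopes at many snoRNA windows. Tested as a difference between changes, the change to MOP was above that to FLOP at 45 of the 67 members (3.91% of bins), and the change to FLOP was below that to HOP at 51 of the 67 (9.17% of bins). SNR77 had a difference of 2.40 on the log2 scale in the first and -2.24 in the second. Both rest on the untagged anti-FLAG and FLOP libraries.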

How the results depend on the processing

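Counts of called members, both directions together, depended most on a minimum log2 change of 1. With it, against untagged, MOP had 1, FLOP 22, HOP 0, Fkh1-MYC 9, Fkh1-FLAG 7, fkh1-dbm-MYC 8 and fkh1-dbm-FLAG 4. Against MOP and FLOP, Fkh1-MYC (MOP) had 2 and Fkh1-FLAG (FLOP) 0, and in G1 they had 1 and 0. Against the mutants both tags had 0. In G1, Mcm4-HA had 4 and Sir2-FLAG 3, and between cultures MOP had 4, FLOP 0 and HOP 0. With DESeq2, MOP had 1 and HOP 3. With TMM scaling Orc1-HA had 4, Sir2-FLAG 39, MOP between cultures 13 and HOP 22, the difference of MOP and HOP 1 and that of Fkh1-FLAG between cultures 1. Without a minimum count no total moved by over 1.5 times. Library numbers did not pair the libraries: in no comparison did all 3 same-numbered pairs correlate above 0.1. The replicate block took Fkh1-FLAG (FLOP) in G1 from 1 to 0, the genome bin took it to 2, and the block left the other 18 totals within 1.5 times.

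Leaving out 1 library gave 0 to 8 calls for MOP against untagged, 0 to 7 for HOP, 13 to 33 for Fkh1-MYC and 7 to 35 for fkh1-dbm-MYC. It gave 6 to 13 for Fkh1-MYC (MOP), 10 to 18 for Fkh1-FLAG (FLOP), 5 to 7 and 0 to 0 for these in G1, and 11 to 26 for Mcm4-HA. Between cultures it gave 12 to 27 for MOP, 11 to 19 for FLOP and 4 to 12 for HOP, and for the differences 0 to 2 for MOP and HOP and 0 to 2 for Fkh1-MYC between cultures. The cause of these changes was not tested.

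The log2 ratio of the snoRNA median to all bins was 0.70 in windows of 1000 bp for untagged anti-FLAG, 0.15 for FLOP, 0.15 for Fkh1-FLAG (FLOP), 0.26 for Fkh1-MYC (MOP), 0.32 for Fkh1-FLAG, 0.41 for fkh1-dbm-FLAG, 0.29 for fkh1-dbm-MYC, 0.27 for Fkh1-MYC (MOP) in G1 and -0.62 for Mcm4-HA. With the mean over members it was 1.09, 0.23 for Fkh1-FLAG (FLOP), 0.40 for Fkh1-MYC (MOP), 0.50 for Fkh1-FLAG, 0.40 for Fkh1-MYC, 0.55 and 0.42 for the mutants with FLAG and MYC, 0.38 for Fkh1-MYC (MOP) in G1, -0.012 for Orc1-HA and -0.61 for Mcm4-HA. Unsmoothed it was 0.37 for fkh1-dbm-MYC, 0.34 for Fkh1-MYC (MOP) in G1 and -0.66 for Mcm4-HA. Of the members picked as the largest rises and falls, none changed sign at any setting. Signs of other called members were not checked. The ratio of untagged anti-HA, which is near 0, ran from -0.04 to 0.05 when 1 library was left out. Counts in untagged anti-MYC were the lowest.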
